A study of Mus musculus with 27 samples.

Results

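The proteasome genes of the mouse liver were followed in 2-week-old offspring of dams on a low fat diet (LFD) or a Western-style diet (WSD). They were chosen by name: every gene whose symbol starts with Psma, Psmb, Psmc, Psmd, Psme, Psmf or Psmg, without pseudogenes, and with a probe set on the array that is assigned to that gene alone. This gave 49 of 18820 measured genes. The proteasome is the barrel-shaped protease that degrades proteins tagged with ubiquitin. Its core consists of outer rings of alpha subunits, which gate the entry, and inner rings of beta subunits, some of which cut the substrate. A cap with ATPases and ubiquitin receptors recognises, unfolds and feeds in the substrates, and in cells exposed to interferon the catalytic beta subunits can be replaced by inducible ones to form the immunoproteasome, which is known for producing peptides for antigen presentation. In the liver, the proteasome takes part in the turnover of enzymes and regulators of lipid and cholesterol metabolism.

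C57BL/6J dams received LFD (10% of energy as fat, 18.0 mg cholesterol/kg) or WSD (45% of energy as fat, 196.5 mg cholesterol/kg) for 6 weeks before mating and further through gestation and lactation, and whole livers of their pups were measured at 2 weeks of age. The groups were males from LFD dams (m-LF, n = 6), males from WSD dams (m-WS, n = 6), females from LFD dams (f-LF, n = 9) and females from WSD dams (f-WS, n = 6). The pups were still nursed, so that maternal diet before birth and through milk cannot be told apart. One array was hybridised per pup, and values are log2 signals. In whole liver, fewer cells of a type and less RNA per cell cannot be told apart, and probe sets of different genes are not set against each other as levels.

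Array medians lay between 5.34 and 5.43, and 7 measured hepatocyte markers had mean signals between 11.46 and 13.21. Xist, the transcript of the inactive X chromosome, was at 9.30 in m-LF6 and at 7.92 in m-WS1, against 3.25 to 4.50 in the other males and 11.67 to 11.88 in the females, while the Y-linked Kdm5d was between 6.98 and 7.43 in all 12 males. Among the proteasome genes f-LF4 stood apart: it was the lowest of the 9 LFD females for 24 of the 49 genes. Array names hold a prefix (G073 or G074) and a number, both unexplained in the labels. Numbers 37, 49 and 50 occur with LFD and 39, 40 and 48 with WSD, so that what a number stands for and the diet cannot be told apart. The diet was given to the dams, and pups of a group may be littermates. Which pups shared a dam is not known here. The tests take the pups as independent, so that their p-values can be too small where littermates are alike.

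Upon maternal WSD, 3 proteasome genes in males and 5 in females passed the threshold of an unadjusted p of 0.01, and Psmb10 passed in both. Of the 49 genes, 34 passed the filters on intensity and on variation between pups (interquartile range) and were tested with limma. Adjusted p-values are over all tested genes. In males 1 gene rose, Psmb10, where 3.02% of all 10810 tested genes rose, and 2 genes fell, Psmd7 and Psmd13, where 2.6% of all tested genes fell. In females 5 genes rose, Psmb10, Psmb7, Psma3, Psmd3 and Psmc5, where 3.6% of all tested genes rose, and none fell, where 1.59% of all tested genes fell. At an unadjusted p of 0.05 the counts of proteasome genes were 1 rise and 2 falls in males, where 8.1% of all tested genes rose and 6.2% fell, and 9 rises and 0 falls in females, where 9.71% rose and 4.75% fell. None of the 34 had an adjusted p under 0.05 in either sex.

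**Figure D1:**
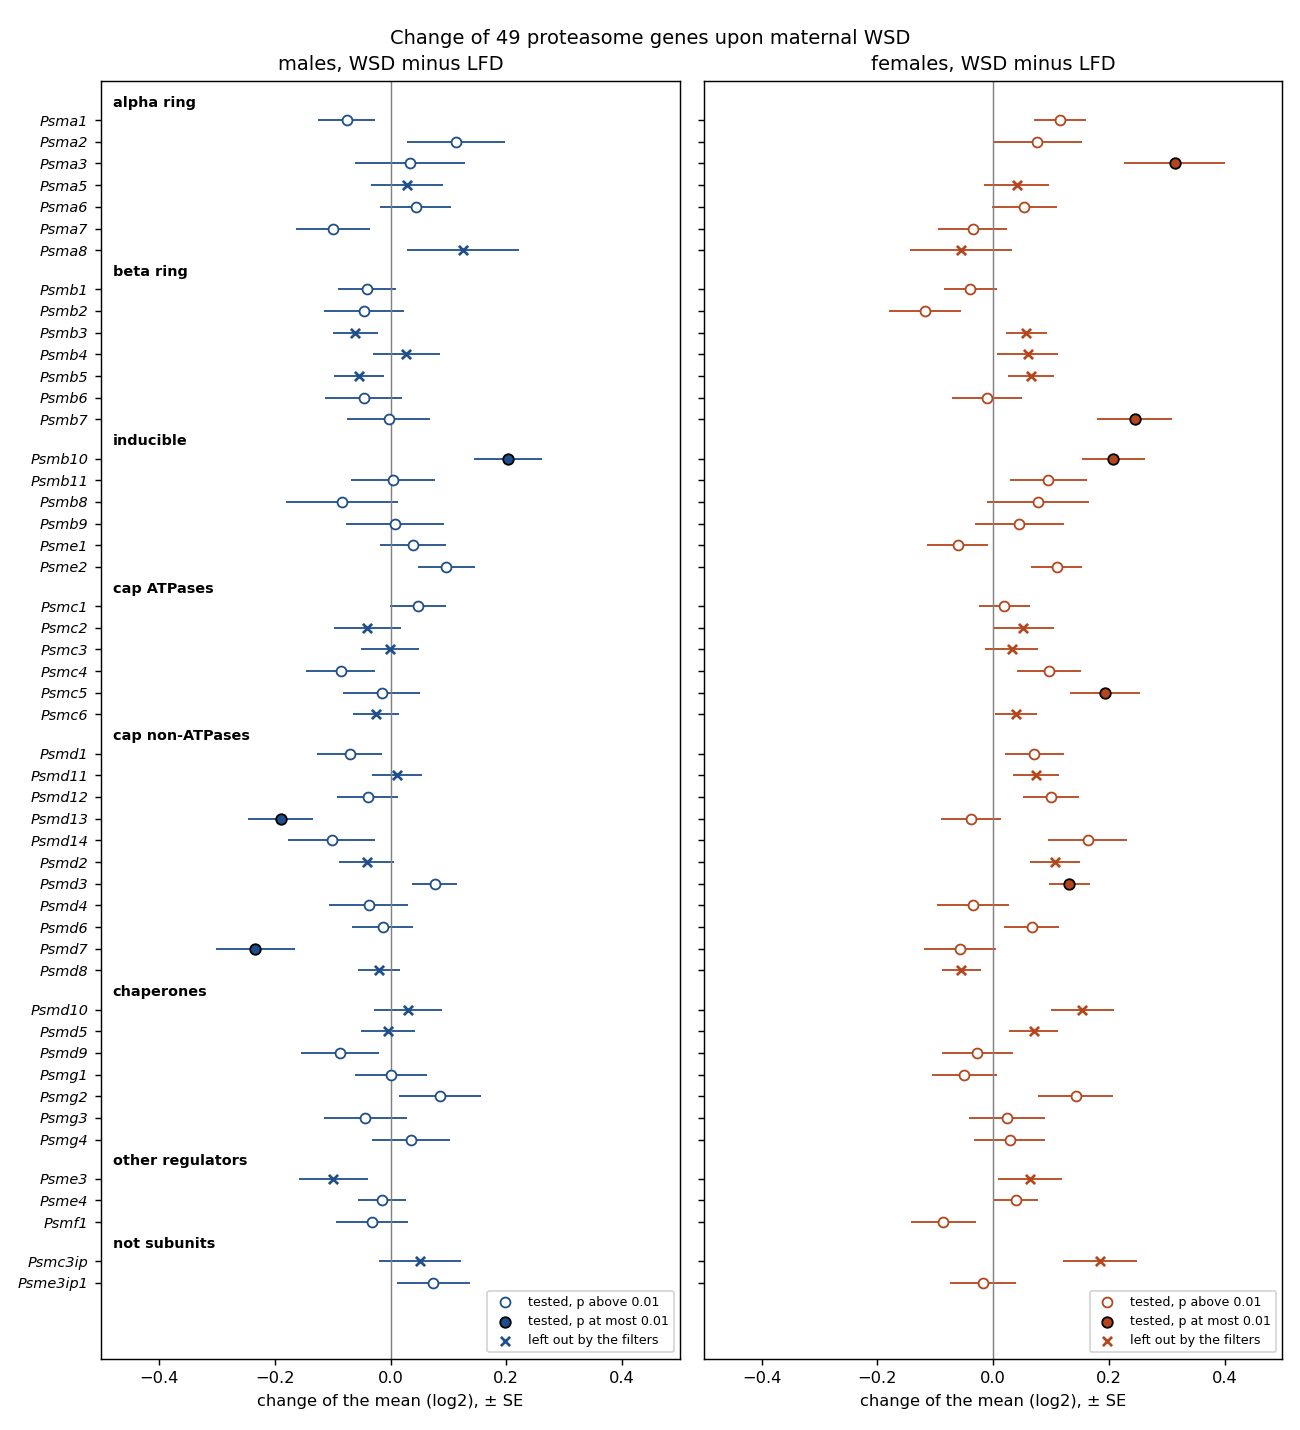
Change of the mean log2 signal upon maternal WSD (x axis, WSD minus LFD, with SE) for each of the 49 proteasome genes (y axis, by class), in males (left) and females (right), from the fit without filters. Filled circles passed p 0.01 in the filtered fit and crosses were not tested there; Psmb10 is filled on both sides, and 35 of 49 genes lie above 0 in females against 20 in males.

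The 15 genes that were not tested comprised 14 that varied too little between pups (Psma5, Psmb3, Psmb4, Psmb5, Psmc2, Psmc3, Psmc6, Psmd2, Psmd5, Psmd8, Psmd10, Psmd11, Psme3 and Psmc3ip), and Psma8, the alpha subunit of the testis, which was under the intensity limit. Fitted without filters, all 49 had a median change of -0.015 in males and 0.058 in females on the log2 scale, against 0.0019 and 0.0016 over all 18820 genes. In this fit 35 of the 49 had a positive change in females, or 71.4%, against 50.9% of all genes. In males 20 of the 49 were positive, or 40.8%, against 51.0% of all genes. Of the 18820 genes only 13279 passed the intensity filter, against 48 of the 49. Among the 34 tested genes, 64.7% were positive in females, against 56.1% of all tested genes. In males 41.2% of the 34 were positive, against 52.8% of all tested genes. The pup f-LF4 bore on the female value: over the 34 tested genes the female median was 0.050 with it and 0.025 without it. Over all tested genes these medians were 0.014 and 0.013. The female median was also 0.0055 on the G073 arrays alone, under the 0.018 of all tested genes there, and 0.12 on the G074 arrays, against 0.0082. It was 0.0047 without the pups of number 49 and 0.011 without those of number 39, both under the medians of all tested genes in these settings (0.011 and 0.012).

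The alpha ring was measured by 7 genes, of which 5 were tested. Psma3 rose in females and no alpha gene passed in males. The signal of Psma3 was 9.75 at the lowest, 9.93 at the median and 10.25 at the highest in LFD females, and 10.14, 10.23 and 10.53 in WSD females. Only f-LF2 of the 9 LFD females lay above the lowest WSD female. The change was 0.31 (SE 0.09, adjusted p = 0.102), the largest among the proteasome genes in females. In males Psma3 spanned 9.91 to 10.32 on LFD and 9.91 to 10.49 on WSD, and the difference was 0.03 (SE 0.10, adjusted p = 0.923). Within the array prefixes, the female change was 0.23 on G073, which did not pass p 0.01, and 0.46 on G074, which did. It no longer passed without the pups of number 49 (0.25). All 3 probe sets assigned to Psma3 gave the same picture, with female differences of 0.30, 0.31 and 0.31. Near-identical copies of a gene cannot be separated by such probe sets.

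Because Psma3 had the largest change, its promoter is shown from RefSeq (mouse build GRCm38.p6, chr12:70974373-70974672, plus strand), from 250 bases before to 50 bases after the start of transcription. Capitals mark the CCAAT box, CCAAT or its reverse complement ATTGG, which was found at 3 places.
Psma3: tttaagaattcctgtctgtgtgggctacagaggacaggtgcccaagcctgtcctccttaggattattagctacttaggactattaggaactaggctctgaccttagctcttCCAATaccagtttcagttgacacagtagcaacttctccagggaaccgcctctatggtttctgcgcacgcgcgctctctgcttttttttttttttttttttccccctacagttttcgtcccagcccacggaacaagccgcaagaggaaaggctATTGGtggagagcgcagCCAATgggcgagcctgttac
The CCAAT box is a common element of promoters that binds the factor NF-Y. It was present in 39% of the 41 proteasome genes with a promoter sequence and in 37.4% of all 32851 promoters. A gene was counted if any promoter given for it held the box, while the share of all is per promoter.

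Psma1 had values of opposite sign in the sexes, -0.08 (SE 0.05, adjusted p = 0.550) in males and 0.12 (SE 0.05, adjusted p = 0.248) in females. Its signal was 9.83, 9.85 and 9.92 (lowest, median, highest) in m-LF, 9.68, 9.79 and 9.95 in m-WS, 9.68, 9.83 and 9.96 in f-LF, and 9.79, 9.95 and 10.03 in f-WS. In both sexes the diet groups overlapped. The test of the difference between the sexes gave -0.19 (SE 0.07, adjusted p = 0.394), just short of p 0.01, and it passed in the fit without filters (adjusted p = 0.479). Psma7 had the smallest p of the alpha genes in males (-0.10, adjusted p = 0.538), and Psma2, Psma6 and the untested Psma5 were between 0.03 and 0.11 in both sexes without a call. A second probe set of Psma5 was at -0.02 in males and 0.10 in females. Another alpha subunit, Psma4, has only a probe set that it shares with another gene and was not counted.

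The beta ring has 7 constitutive genes, of which 4 were tested and 3 encode the proteolytic sites. Psmb7, which carries the trypsin-like site, rose in females. Its signal was 8.87, 9.19 and 9.45 (lowest, median, highest) in f-LF and 9.34, 9.43 and 9.56 in f-WS. Except for f-LF2 and f-LF3, all LFD females were below the lowest WSD female. The change was 0.24 (SE 0.07, adjusted p = 0.0957). In males Psmb7 was 9.19, 9.28 and 9.40 in m-LF and 9.15, 9.25 and 9.47 in m-WS, and the means differed by less than their error (-0.0031, SE 0.07, adjusted p = 0.991). The change in females was 0.18 among the G073 arrays and 0.34 among the G074 arrays, and neither passed p 0.01 alone. It no longer passed without the pups of number 39 or 49 (0.21 each). The difference of Psmb7 between the sexes was -0.25 (SE 0.10, adjusted p = 0.409).

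The other catalytic subunits did not pass. Psmb6, with the caspase-like site, was 9.58, 9.73 and 9.84 in m-LF, 9.57, 9.70 and 9.75 in m-WS, 9.30, 9.63 and 9.78 in f-LF, and 9.48, 9.60 and 9.77 in f-WS. Its difference between the diets was -0.05 (SE 0.07, adjusted p = 0.830) in males and -0.01 (SE 0.06, adjusted p = 0.963) in females. Psmb5, with the chymotrypsin-like site, varied too little between pups to be tested, at 10.93, 10.99 and 11.12 in m-LF, 10.89, 10.92 and 11.07 in m-WS, 10.81, 10.93 and 11.09 in f-LF, and 10.97, 10.99 and 11.06 in f-WS. Without filters its difference between the diets was -0.05 in males and 0.07 in females. All diet groups of both genes overlapped. Among the structural beta subunits, Psmb2 was at -0.05 in males and -0.12 in females (SE 0.06, adjusted p = 0.403), and Psmb1 was at -0.04 in both sexes (adjusted p = 0.791 in males, the smallest of the beta ring there).

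Of the inducible genes, 6 were measured and all were tested: Psmb8, Psmb9 and Psmb10, which replace Psmb5, Psmb6 and Psmb7 in the immunoproteasome, Psmb11, the variant of the thymus, and Psme1 and Psme2, which form the interferon-inducible activator ring. Psmb10 rose in both sexes, by 0.20 in males and 0.21 in females. In males its signal was 8.31, 8.38 and 8.50 (lowest, median, highest) on LFD and 8.50, 8.63 and 8.68 on WSD. These were the only diet groups of any of the 49 genes that did not overlap, although m-LF1 and m-WS3 both round to 8.50. Over all 18820 measured genes the diet groups did not overlap for 0.903% in males and 0.308% in females. In females it was 8.24, 8.32 and 8.55 on LFD and 8.41, 8.56 and 8.72 on WSD, and f-LF3 and f-LF9 lay above the lowest WSD females. The change was 0.20 (SE 0.06, adjusted p = 0.0947) in males and 0.21 (SE 0.05, adjusted p = 0.0852) in females. The difference between the sexes was -0.0052 (SE 0.08, adjusted p = 0.988).

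By array prefix, the change of Psmb10 in males was 0.27 on G073 and 0.12 on G074, and in females it was 0.21 and 0.19. In both sexes it passed p 0.01 on G073 and not on G074. With the array number as a random block Psmb10 was at 0.21 in both sexes and passed. It no longer passed p 0.01 when the pups of number 48 (0.19) or 49 (0.18) were left out in males, or those of number 39 (0.15) or 49 (0.16) in females. Without m-LF6 and m-WS1 the male change was 0.20.

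**Figure D2:**
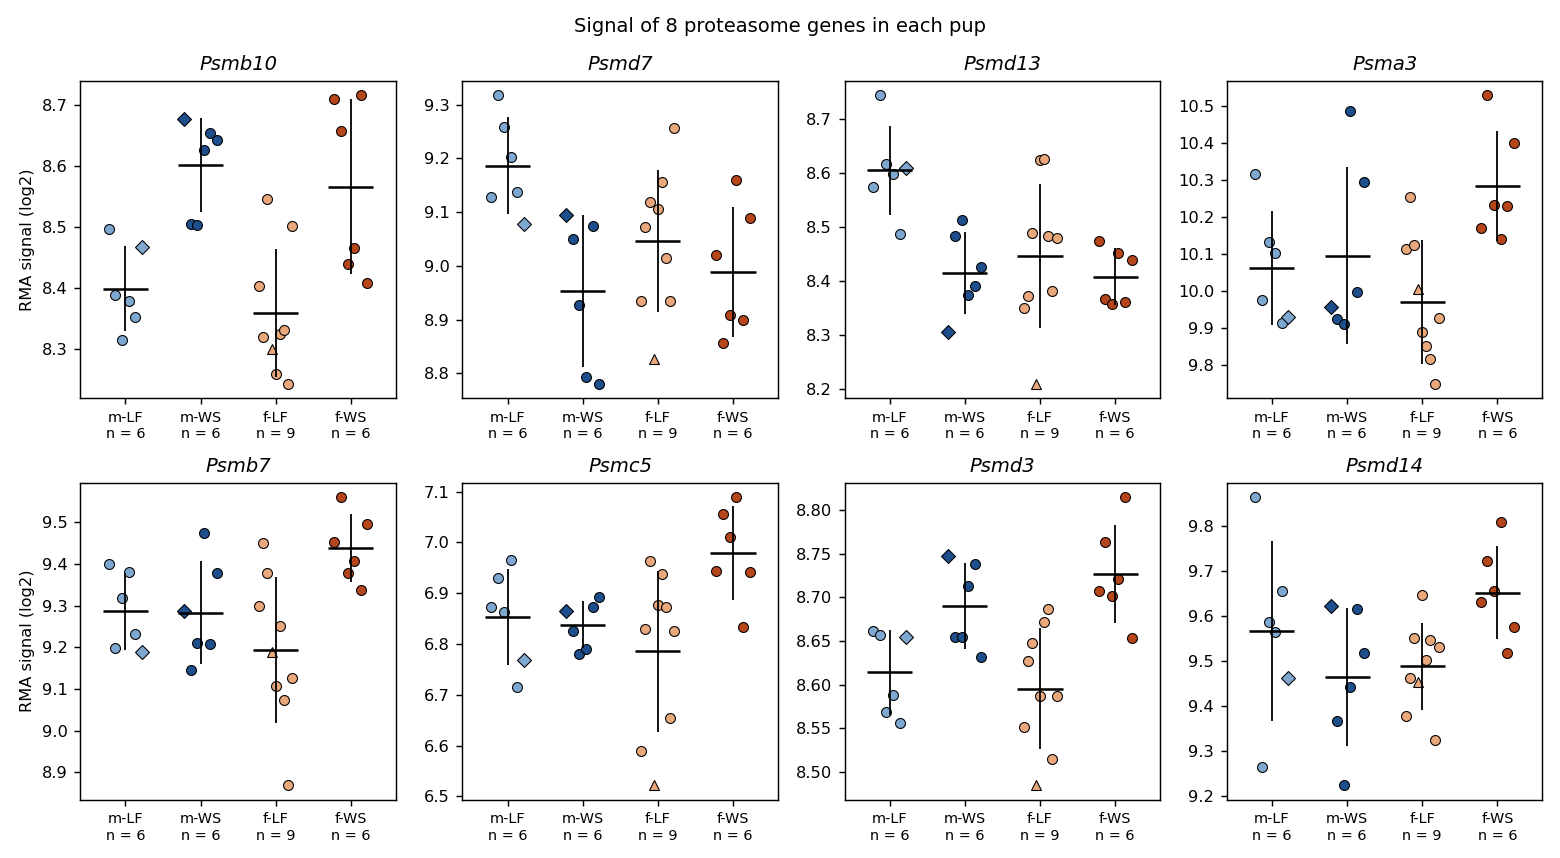
Log2 signal (y axis) of 8 proteasome genes per pup, by sex and diet of the dam; bars give mean and SD (n = 6, 6, 9 and 6), the triangle is f-LF4 and the diamonds are m-LF6 and m-WS1. Psmb10 is higher on WSD in both sexes, Psmd7 and Psmd13 are lower on WSD in males, and Psma3, Psmb7, Psmc5 and Psmd3 are higher on WSD in females; Psmd14 is shown for its values of opposite sign in the sexes.

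Psmb8 and Psmb9, which are usually induced together with Psmb10, did not pass in either sex. Psmb8 was 6.93, 7.27 and 7.46 in m-LF, 7.05, 7.11 and 7.43 in m-WS, 6.86, 7.16 and 7.41 in f-LF, and 7.07, 7.21 and 7.45 in f-WS. Psmb9 was 7.10, 7.24 and 7.50 in m-LF, 7.05, 7.27 and 7.42 in m-WS, 7.07, 7.33 and 7.56 in f-LF, and 7.20, 7.37 and 7.55 in f-WS. The diet groups of both genes overlapped in both sexes. The difference between the diets of Psmb8 was -0.08 (SE 0.10, adjusted p = 0.766) in males and 0.08 (SE 0.09, adjusted p = 0.750) in females. That of Psmb9 was 0.0075 (SE 0.09, adjusted p = 0.983) in males and 0.05 (SE 0.08, adjusted p = 0.850) in females.

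Psme2 was 9.99, 10.10 and 10.25 in m-LF, 10.17, 10.21 and 10.29 in m-WS, 9.96, 10.04 and 10.17 in f-LF, and 10.03, 10.11 and 10.30 in f-WS. Its difference between the diets was 0.10 (SE 0.05, adjusted p = 0.410) in males and 0.11 (SE 0.05, adjusted p = 0.272) in females. It passed p 0.01 in females in 1 other setting, without the pups of number 48 (0.16). Psme1, its partner in the ring, was 8.70, 8.95 and 9.08 in m-LF, 8.88, 8.94 and 9.14 in m-WS, 8.84, 8.97 and 9.10 in f-LF, and 8.83, 8.92 and 9.01 in f-WS, with differences between the diets of 0.04 (adjusted p = 0.837) in males and -0.06 (adjusted p = 0.660) in females. Psmb11 was at 0.0045 (adjusted p = 0.987) in males and 0.10 (adjusted p = 0.548) in females. Its group means lay between 4.24 and 4.34, close to the intensity limit, so that these values say little. A second probe set, shared by Psme2 and Psme2b, was higher on WSD by 0.10 in males and 0.17 in females, without a test.

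The promoters of the inducible catalytic subunits are shown because Psmb10 rose where Psmb8 and Psmb9 did not pass (RefSeq, GRCm38.p6, 250 bases before to 50 after the start). Psmb8 (chr17:34197945-34198244, plus strand) and Psmb9 (chr17:34187281-34187580, minus strand) are neighbours on chromosome 17, and Psmb10 (chr8:105938343-105938642, minus strand) lies apart on chromosome 8. Capitals mark matches on either strand to the interferon-gamma activated site (GAS, TTCNNNGAA), the interferon-stimulated response element (ISRE, GAAA followed after any 2 bases by GAAA), the antioxidant response element (ARE, TGACNNNGC) or the CCAAT box.
Psmb8: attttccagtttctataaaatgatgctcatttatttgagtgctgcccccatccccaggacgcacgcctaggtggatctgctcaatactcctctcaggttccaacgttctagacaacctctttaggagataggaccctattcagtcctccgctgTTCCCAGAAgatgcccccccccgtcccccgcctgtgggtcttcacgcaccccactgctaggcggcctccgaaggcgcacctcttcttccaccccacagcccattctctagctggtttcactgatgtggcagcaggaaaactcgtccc
Psmb9: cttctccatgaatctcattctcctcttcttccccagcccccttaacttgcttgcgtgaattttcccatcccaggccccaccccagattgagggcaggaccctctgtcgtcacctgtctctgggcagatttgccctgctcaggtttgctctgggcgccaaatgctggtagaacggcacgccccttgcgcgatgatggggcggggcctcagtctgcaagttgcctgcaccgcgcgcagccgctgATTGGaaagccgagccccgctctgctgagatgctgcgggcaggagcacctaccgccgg
Psmb10: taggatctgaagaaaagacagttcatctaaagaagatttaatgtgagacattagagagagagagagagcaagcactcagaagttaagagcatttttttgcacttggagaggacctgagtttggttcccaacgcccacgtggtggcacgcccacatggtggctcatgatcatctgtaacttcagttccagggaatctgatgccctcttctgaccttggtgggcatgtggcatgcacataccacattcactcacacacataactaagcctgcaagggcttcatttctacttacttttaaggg
Psmb8 held 1 GAS match, Psmb9 held 1 CCAAT box and Psmb10 held none of the 4 motifs, which says only that these letters are not in this window. Of the 41 proteasome genes with a promoter sequence, 3 held GAS (Psmb8, Psmd2 and Psmg1; 7.32% against 8.3% of all promoters) and 5 held ISRE (Psmb3, Psmd4, Psmd9, Psme1 and Psmg4; 12.2% against 3.44%). The ARE, which is bound by the NRF factors that control proteasome genes, was found in 6 (Psmb5, Psmb6, Psmc6, Psmd12, Psmd9 and Psme4; 14.6% against 12.4%). For each motif the first share is per gene, counting any promoter given for it, and the second is per promoter. None of the 5 genes with ISRE, of which Psmb3 was not tested, passed p 0.01 in either sex. No promoter sequence was given for 8 proteasome genes, among them Psmb7, Psmd3 and Psmd7.

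To compare each inducible subunit with the one it replaces, the log2 signal of the constitutive subunit was subtracted from that of the inducible one within each pup. Such a difference has no meaning as a level, but its shift between diets is the change of the inducible gene minus that of the constitutive one. The shifts come from the same values as the changes above and are not independent of them. These tests were added after the data were examined. For Psmb10 minus Psmb7 it was -0.89 ± 0.11 (SD, n = 6) in m-LF and -0.68 ± 0.10 (SD, n = 6) in m-WS, a shift of 0.21 (two-sided exact permutation test over pups, p = 0.0130, adjusted over 6 tests p = 0.0779). In females, where both genes rose, it was -0.84 ± 0.16 (SD, n = 9) and -0.87 ± 0.17 (SD, n = 6), a shift of -0.04 (exact p = 0.671). The shift in males was 0.28 (exact p = 0.0286, the smallest that 4 against 3 pups allow) on the G073 arrays and 0.07 (exact p = 0.3) on the G074 arrays, where 2 against 3 pups cannot give a p under 0.1. It was 0.18 without the pups of number 40 and 0.15 without those of number 49 (exact p = 0.0524 in both). For Psmb8 minus Psmb5 the shift was -0.03 in males and 0.01 in females (exact p = 0.823 and 0.917). For Psmb9 minus Psmb6 it was 0.05 and 0.06 (exact p = 0.561 and 0.464). The groups overlapped in all 6 cases.

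**Figure D3:**
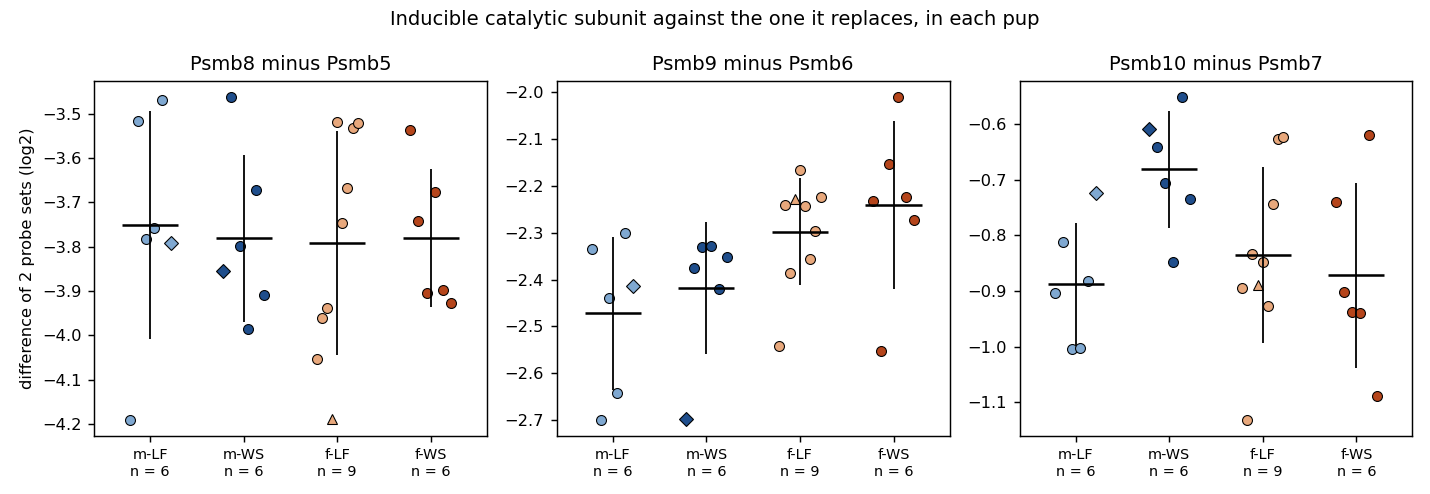
Log2 signal of Psmb8, Psmb9 and Psmb10 minus that of Psmb5, Psmb6 and Psmb7 (y axis) per pup, by sex and diet of the dam; bars give mean and SD (n = 6, 6, 9 and 6), the triangle is f-LF4 and the diamonds are m-LF6 and m-WS1. The means of Psmb10 minus Psmb7 are -0.89 in m-LF and -0.68 in m-WS, and the other diet groups have means within 0.06 of each other.

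As immune cells are rich in the immunoproteasome, markers of other liver cells were read beside these genes. Of 8 tested lymphocyte markers, 3 rose in males, where 3.02% of all tested genes rose. These were Igll1 by 1.14, Ebf1 by 0.89 and Cd79a by 0.84 (adjusted p = 0.0332, 0.0856 and 0.0947). The others did not pass in males: Cd79b was at 0.56, Ptprc at 0.18, Cd52 at 0.09, Cd3e at -0.0056 and Cd3g at -0.15. None of the 8 passed in females, where 3.6% of all tested genes rose, but 5 of the 8 were positive there. These were Igll1 at 0.49, Ebf1 at 0.39, Cd79b at 0.17, Ptprc at 0.13 and Cd79a at 0.04. Cd52 (-0.05), Cd3e (-0.07) and Cd3g (-0.04) were negative. None of the 8 lymphocyte markers passed in the test of the difference between the sexes, where 2.5% of all tested genes passed. Of 11 neutrophil and myeloid precursor markers, all were positive in males and 3 passed (S100a9 at 0.82, Ltf at 0.73 and Cxcr2 at 0.39, adjusted p = 0.137, 0.168 and 0.0797). None passed in females, but 9 of the 11 were positive there. Among them were Mmp8 at 0.77, Retnlg at 0.52 and Cxcr2 at 0.25 (adjusted p = 0.213, 0.299 and 0.227). Elane (-0.12) and Mpo (-0.07) were negative. None of the 11 passed in the test of the difference between the sexes. No marker of Kupffer cells (8 tested) or of erythroid cells (7 tested) passed in either sex. All 8 Kupffer cell markers were negative in males, with a median of -0.07. In females 5 of the 8 were positive, with a median of 0.06, and C1qa was the lowest at -0.23 (adjusted p = 0.214). Of the 7 erythroid markers 3 were positive in males and 1 in females. The mean of the 10 measured lymphocyte markers, relative to all pups, lay between -0.37 and 0.26 in m-LF, -0.05 and 0.27 in m-WS, -0.37 and 0.53 in f-LF, and -0.15 and 0.35 in f-WS; Vpreb1 and Cd3d were under the intensity limit. The mean of the neutrophil markers lay between -0.81 and 0.61 in m-LF, -0.10 and 0.51 in m-WS, -0.63 and 0.72 in f-LF, and -0.40 and 0.54 in f-WS.

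In both sexes the part of these cells in the rise of Psmb10 was not tested. Of 17 tested genes of antigen processing and interferon signalling, 1 rose in males (H2-Ab1, a class II antigen-presenting molecule, by 0.31, adjusted p = 0.175) and 1 in females (Irf8, a transcription factor of myeloid cells, by 0.24, adjusted p = 0.0957). Over all tested genes 3.02% rose in males and 3.6% in females. Ifng was under the intensity limit. Tap1, a peptide transporter of the same pathway, was at 0.04 (adjusted p = 0.890) in males and 0.02 (adjusted p = 0.923) in females. H2-Aa, another class II gene of this list, did not pass in either sex (males -0.02, adjusted p = 0.976; females -0.27, adjusted p = 0.358). At an unadjusted p of 0.05, Isg15 was also higher on WSD in males, by 0.21 (adjusted p = 0.310). At that threshold the females had a higher Ifit1 (0.31, adjusted p = 0.323) and a lower Nlrc5 (-0.16, adjusted p = 0.330). Positive values were held by 11 of the 17 genes in males and by 9 in females.

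The 6 ATPases of the cap, which unfold the substrate, were measured and 3 were tested. Psmc5 rose in females. It was 6.52, 6.83 and 6.96 (lowest, median, highest) in f-LF and 6.83, 6.98 and 7.09 in f-WS, and 5 of the 6 WSD females lay at 6.94 or above, as did f-LF3 and f-LF6. The change was 0.19 (SE 0.06, adjusted p = 0.152). The call was lost in 10 of 49 other settings, among them without f-WS2 (0.18), without f-WS4 (0.17) and with arrays centred on their medians (0.17). Without f-LF4 it was 0.16 and passed. On the G073 arrays it was 0.14 and on the G074 arrays 0.28, neither of which passed. In males Psmc5 was 6.72, 6.87 and 6.97 on LFD and 6.78, 6.85 and 6.89 on WSD (-0.01, SE 0.07, adjusted p = 0.956).

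Psmc4 was at -0.09 in males (adjusted p = 0.573) and 0.10 in females (adjusted p = 0.444), and Psmc1 at 0.05 and 0.02. Psmc2, Psmc3 and Psmc6, which were not tested, were between -0.04 and -0.00054 in males and between 0.03 and 0.05 in females in the fit without filters. Thus all 6 ATPase genes had a positive value in females and 1 of 6 in males, while 50.9% and 51.0% of all genes were positive in that fit. Of the genes that passed the filters, 56.1% were positive in females and 52.8% in males.

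Of the 11 other subunits of the cap, 8 were tested, of which 2 fell in males and 1 rose in females. Over all tested genes 2.6% fell in males and 3.6% rose in females. Psmd7, the structural partner of the deubiquitinase Psmd14 in the lid, was 9.08, 9.17 and 9.32 (lowest, median, highest) in m-LF and 8.78, 8.99 and 9.10 in m-WS. Only m-WS1 reached above the lowest LFD male, m-LF6. The change was -0.23 (SE 0.07, adjusted p = 0.0962), and it was -0.28 without m-LF6 and m-WS1. In females Psmd7 was 8.83, 9.07 and 9.26 on LFD and 8.86, 8.96 and 9.16 on WSD (-0.06, SE 0.06, adjusted p = 0.738). The male change was -0.19 on G073 and -0.28 on G074, where neither passed alone. Without the pups of number 48 it was -0.11 and did not pass, nor did it without those of number 37 (-0.22) or 49 (-0.21). The difference of the change between the sexes was -0.18 (adjusted p = 0.553) and did not pass.

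Psmd13, another lid subunit, was 8.49, 8.60 and 8.74 in m-LF and 8.31, 8.41 and 8.51 in m-WS. Only m-WS3 lay above the lowest LFD male, m-LF5. The change was -0.19 (SE 0.06, adjusted p = 0.102). In females it was 8.21, 8.48 and 8.63 on LFD and 8.36, 8.40 and 8.47 on WSD, so that the WSD females lay inside the range of the LFD females (-0.04, SE 0.05, adjusted p = 0.797). The male change was -0.21 on G073, which passed, and -0.20 on G074, which did not. It no longer passed without m-LF2 (-0.16), which had the highest signal of all pups, or without m-LF6 and m-WS1 (-0.17), and also not without number 37 (-0.16), 40 (-0.18) or 48 (-0.21). The difference between the sexes in the change was -0.15 (adjusted p = 0.538).

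On LFD, Psmd13 was also the only one of the 34 genes with a difference between the sexes at p 0.01, where 1.37% of all tested genes did. The LFD males were higher by 0.16 (SE 0.05, adjusted p = 0.722). This comparison uses the same LFD pups as the change in males. The value was 0.08 on the G073 arrays and 0.29 on the G074 arrays, and only the latter passed. The call was lost in 11 of 48 other settings. Among these were leaving out m-LF2, m-LF3, f-LF1, f-LF2, f-LF4 or f-LF8 singly, with values between 0.13 and 0.16, and leaving out the pups of number 37 (0.11) or 48 (0.16).

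Psmd3, a lid subunit as well, rose in females. It was 8.48, 8.59 and 8.69 in f-LF and 8.65, 8.71 and 8.82 in f-WS, and 7 of the 9 LFD females were below the lowest WSD female. The change was 0.13 (SE 0.04, adjusted p = 0.103). In males Psmd3 was 8.56, 8.62 and 8.66 on LFD and 8.63, 8.68 and 8.75 on WSD (0.08, SE 0.04, adjusted p = 0.415). The female change was 0.12 on G073 and 0.15 on G074, and neither passed alone, nor did it pass with arrays centred on their medians (0.11). The test of the difference between the sexes gave -0.06 (adjusted p = 0.770).

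Psmd14, the deubiquitinase that removes ubiquitin from the substrate, was 9.26, 9.58 and 9.86 in m-LF, 9.22, 9.48 and 9.62 in m-WS, 9.33, 9.50 and 9.65 in f-LF, and 9.52, 9.64 and 9.81 in f-WS. Its value was -0.10 (adjusted p = 0.601) in males and 0.16 (adjusted p = 0.272) in females, with a difference between the sexes of -0.27 (SE 0.10, adjusted p = 0.409). The scaffold subunit Psmd1 (-0.07 and 0.07), the ubiquitin receptor Psmd4 (-0.04 and -0.03) and the lid subunits Psmd6 (-0.01 and 0.07) and Psmd12 (-0.04 and 0.10) did not pass in males or females. The untested Psmd2, Psmd8 and Psmd11 had values between -0.04 and 0.01 in males and between -0.05 and 0.11 in females.

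No proteasome gene passed p 0.01 in the test of the difference between the sexes (0 of 34, where 2.5% of all tested genes passed). In this test 6 of 34 genes had p under 0.05 with a lower value in males, where 5.42% of all tested genes did, and 0 with a higher value, where 4.38% did. The 6 were Psma1, Psma3 (-0.28, adjusted p = 0.485), Psmb7, Psmc4 (-0.18, adjusted p = 0.469), Psmc5 (-0.21, adjusted p = 0.450) and Psmd14. The genes that passed in females only are therefore not shown to respond differently in males. When single pups were left out, between 0 and 3 genes passed, the latter without m-WS4 (Psma1, Psma3 and Psmb7), where 2.66% of all tested genes passed.

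The assembly chaperones escort subunits during the building of the proteasome. Of 7, 5 were tested and none passed. Psmg2 was at 0.09 (adjusted p = 0.655) in males and 0.14 (SE 0.07, adjusted p = 0.311) in females, and Psmd9 at -0.09 (adjusted p = 0.620) and -0.03 (adjusted p = 0.893). Psmg1, Psmg3 and Psmg4 had values between -0.05 and 0.04 in both sexes. Psmd10, also known as the oncoprotein gankyrin, was not tested, and without filters it was at 0.03 in males and 0.15 in females (SE 0.05, adjusted p = 0.224), from 7.26, 7.57 and 7.69 in f-LF to 7.54, 7.67 and 7.86 in f-WS. Here f-LF4 held the lowest signal of the LFD females, 7.26.

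None of the remaining regulators passed. Psme4, a nuclear activator, was at -0.02 (adjusted p = 0.926) in males and 0.04 (adjusted p = 0.721) in females, and Psmf1, a proteasome inhibitor in vitro, at -0.03 and -0.09 (adjusted p = 0.881 and 0.528). Psme3, a further activator, was not tested (-0.10 and 0.06 without filters). The rule also took in Psmc3ip and Psme3ip1, which are named for binding a proteasome protein and are not subunits. Psme3ip1 was at 0.07 and -0.02 (adjusted p = 0.662 and 0.934). Psmc3ip, which acts in meiotic recombination, was not tested and was at 0.18 in females without filters (adjusted p = 0.226). The fit without filters thus had 7 of 49 rises at p 0.01 in females, namely the 5 above, Psmd10 and Psmc3ip, where 2.7% of all 18820 genes rose, and 0 falls, where 1.32% fell. In males it had 1 rise and 2 falls of 49, where 2.1% and 1.81% of all genes rose and fell.

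Averaged over the genes of a class, the diet groups overlapped. Over all 49 genes, the mean relative to all pups was 0.01 ± 0.02 (SD, n = 6) in m-LF, 0.0031 ± 0.02 (SD, n = 6) in m-WS, -0.03 ± 0.06 (SD, n = 9) in f-LF and 0.03 ± 0.04 (SD, n = 6) in f-WS. The lowest pup was f-LF4 at -0.15, and f-LF4 was the lowest LFD female in the alpha ring (-0.20), the beta ring (-0.13), the inducible genes (-0.12), the ATPases (-0.17), the other cap subunits (-0.14) and the chaperones (-0.14). Among the WSD females f-WS5 was the lowest for 21 of the 49 genes, with -0.09 in the ATPases, yet it had the highest Psmb10 and Psmd3 signals of its group. Without m-LF6 and f-LF4, 3 genes passed in males and 5 in females, which were those named above. Of all tested genes 7.62% were called in males and 3.89% in females in that setting.

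**Figure D4:**
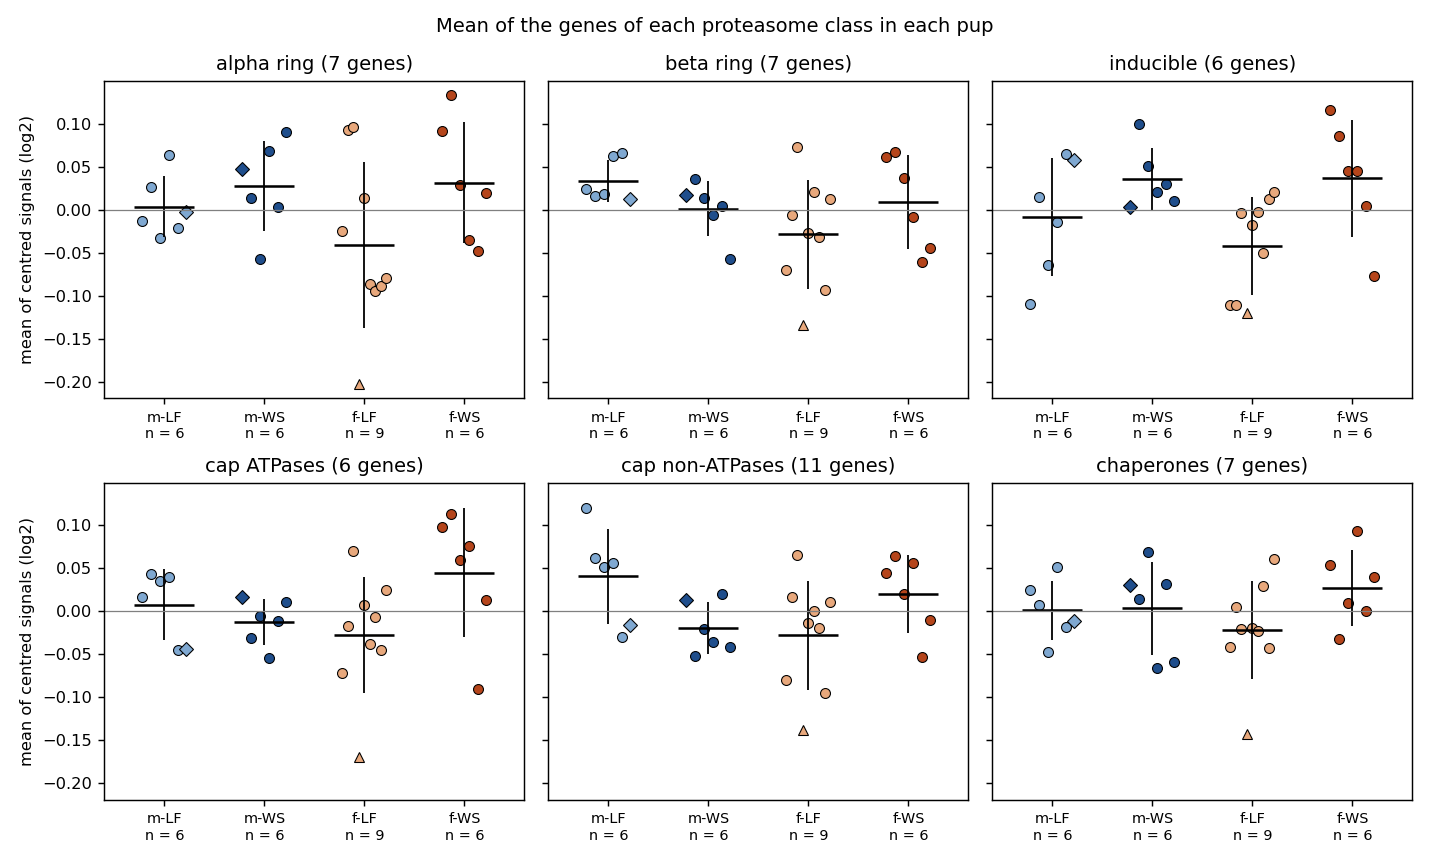
Mean of the log2 signals of the genes of each class, each gene relative to its mean over the 27 pups (y axis), per pup, by sex and diet of the dam; bars give mean and SD (n = 6, 6, 9 and 6), the triangle is f-LF4 and the diamonds are m-LF6 and m-WS1. The diet groups overlap in all 6 classes, and f-LF4 is the lowest LFD female in each.

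Genes that work with the proteasome but carry other symbols were read from lists beside them. Of 5 tested partners (subunits and bound enzymes without a Psm symbol), Uchl5, a deubiquitinase bound to the cap, rose in females by 0.19 (adjusted p = 0.0984) and was at 0.02 in males (adjusted p = 0.950), and the small subunit Sem1 was at 0.09 and 0.11 (adjusted p = 0.546 and 0.362). Over all tested genes 3.6% rose in females. Of 5 tested ubiquitin and shuttle genes, Uba6, a ubiquitin-activating enzyme, rose in females by 0.14 (adjusted p = 0.173) and was at -0.10 in males (adjusted p = 0.420). Its difference between the sexes was -0.24 (adjusted p = 0.366) and passed p 0.01, as 2.5% of all tested genes did. None of 9 tested genes listed for the transcriptional control of proteasome genes passed in either sex. These were transcription factors, besides Ngly1 and Keap1, which are not. Nfe2l2 was at 0.10 (adjusted p = 0.474) in males and -0.04 (adjusted p = 0.775) in females. Nfe2l1 and Nfyc of this list varied too little between pups to be tested, so that nothing is said of them here.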

How the data were processed

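RNA of 27 livers was measured on Affymetrix Mouse Gene 1.1 ST arrays, 1 per pup. The authors deposited log2 values normalised by RMA (robust multichip average; version not given in the sources used here) for 35556 probe sets of the manufacturer, not the redefined gene sets of their own analysis. All columns were matched to samples (0 were not). Of the probe sets, 21218 were assigned to 1 gene, 1881 to several and 12457 to none in the platform annotation; symbols were updated through Entrez IDs. The single-gene probe set with the highest mean stood for a gene. Genes were tested if 4 or more arrays reached an intensity of 20 and the interquartile range was not under 0.1 (10810 of 18820). The 4 groups were fitted together with limma 3.58.1 (R 4.3.3; moderated test with intensity trend), with p at most 0.01 as the call, as in the study's methods, and Benjamini-Hochberg adjusted p over all tested genes. The code was tested on simulated data. SEs are those of limma.

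Values of every group are given for genes that passed, for the catalytic and the inducible subunits, and for some others of note chosen after their values were seen (Psma1, Psmd14 and Psmd10). The proteasome genes, the further lists and the tests were chosen with earlier results of these data known. The exact tests of subunit pairs (Python 3.11.15; figures with matplotlib 3.10.9) and the fit without m-LF6 and f-LF4 were added after the data were examined. Alternatives comprised other filters, probe set choices, centring, repeated quantile normalisation, array weights, each sex alone, array prefix, array number, replicate number as a block, and leaving out pups. Precision was limited by the count of pups; the median SD over tested genes was 0.12 to 0.13 per group.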

Additional observations from a re-analysis of the deposited data

Results flagged for a closer look

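In the 88 groups of pups examined (13 proteasome genes and 9 means, over each class of subunit and over all members, in each of the 4 groups), 2 held a pup far from the others of its group, where chance alone gives about 1 in 20. Psmb6 was at 9.30 in f-LF4, with the other LFD females between 9.60 and 9.78; f-LF4 was also the lowest of its group for 24 of the 49 genes. Psme1 was at 9.14 in m-WS2, with the other WSD males between 8.88 and 8.94.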

How the results depend on the processing

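The counts at p 0.01 were recomputed in 49 other settings for the change in each sex and in 48 for the comparisons between the sexes, which a fit of each sex alone does not hold. No proteasome gene that passed changed direction in any of them. As these settings reuse the pups that gave the calls, a change of direction was unlikely from the start. For males the count of 3 became 0 on the G074 arrays and without number 48, and 1 without number 37 and without number 49. The share of all tested genes called in males went from 5.62% to 0.685%, 3%, 3.7% and 3.23% in these settings. For females the count of 5 became 3 with arrays centred on their medians and without number 39, 2 on the G073 arrays and without number 49, and 1 on the G074 arrays. On G073 and without number 39 these counts include Psmg2, which is not among the 5. Of all tested genes, 5.19% were called in females, and 5.55% without number 39, 1.84% on G073, 1.56% without number 49 and 1.92% on G074. Centring on medians turned the shares of all genes that rose and fell in females from 3.6% and 1.59% to 1.92% and 2.44%. With an adjusted p under 0.05 as the call, all counts were 0. With the replicate number as a block (replicate block) the females had 3 calls, Psmb10, Psmd3 and Psmg2. Of all tested genes 5.24% were called in females in that setting. Same-numbered pups, however, shared no more than a number (correlations of their deviations from -0.26 to 0.38). With the array number as a random block (consensus correlation 0.089) 3 genes passed in males and 5 in females. The share of all tested genes called there was 3.9% in males and 3.52% in females. The count for the difference between the sexes, 0, became 1 with the intensity filter only, without filters and without number 37, and 2 without m-LF6 and m-WS1. The share of all tested genes that passed was 2.5% in the main fit, and 2.45%, 2.04%, 2.01% and 3.37% in these settings. The count for LFD males against females, 1, became 0 on the G073 arrays, with the replicate block, and without number 37, number 48, or m-LF6 and f-LF4. The share of all tested genes was 1.37% in the main fit, and 1.6%, 1.55%, 1.07%, 1.14% and 1.57% in these settings. Without single pups the counts lay between 2 and 3 (males), 4 and 6 (females), 0 and 3 (difference) and 0 and 1 (LFD). The median change over the tested genes moved to -0.034 without number 50 in males and to 0.12 on the G074 arrays in females, where it was 0.0055 on the G073 arrays. Smaller subsets hold fewer pups.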

Other observations

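Psma4 is measured by a probe set that it shares with AY074887. This probe set differed between the diets by -0.02 in males and 0.04 in females. Of the genes with more than 1 probe set, Psmc1 and Psma5 were uneven. For Psmc1 the female differences were 0.02 and 0.10 and the male differences 0.05 and -0.02. For Psma5 the female differences were 0.10 and 0.04 and the male differences -0.02 and 0.03. Both probe sets of Psmd2 were higher on WSD in females, by 0.11 and 0.08, and lower in males, by -0.04 and -0.03.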
